A study of Mus musculus with 36 samples.

Results

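The response of wild-type (WT) immortalized mouse dermal fibroblasts (iDFs) to 30 min of serum stimulation was measured by poly-A RNA-seq. The members were the 4 libraries labelled iDF WT, of 36 libraries in the series: 2 from cells taken at 0 min, after growth to confluence and 24 h in 0.5% serum, and 2 from cells taken 30 min after the change to 10% serum. Both groups came from male cells of WT genotype, and the cells had been derived from the skin of mice without tumours. The starvation was common to both groups, so every change described here is a change from a starved, confluent culture. The 2 libraries of a group are experimental replicates of cultured cells, and nothing in the labels ties them to separate animals. The p-values therefore measure the spread between these cultures, which may be technical. The 4 matching libraries of dKO iDFs, in which both macroH2A histone variant genes were knocked out, entered the same fit and serve for comparison. Sorted WT cancer-associated fibroblasts, taken from melanomas 50 days after their induction, are set beside the response at the end.

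Serum contains growth factors and lipids, including platelet-derived factors and lysophosphatidic acid, that act on receptor tyrosine kinases and G protein-coupled receptors. In fibroblasts the MAP kinase cascade phosphorylates ternary complex factors bound beside serum response factor (SRF), actin assembly releases the SRF partner MRTF-A, and parallel inputs reach CREB, NF-κB and YAP. The transcripts that appear within minutes need no new protein synthesis and are called immediate early genes. They encode transcription factors, secreted signals and the feedback inhibitors that end the response, and many of their mRNAs are short-lived.

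The 4 WT libraries held between 22560402 and 25414919 counts in genes. The cultures expressed the dermal fibroblast markers at high level, with the 16 genes of the marker list summing to between 48400 and 51210 CPM (counts scaled to a library total of 1000000). Markers of other skin cells were close to 0. The summed level was at most 4.17 CPM for 10 keratinocyte genes, 8.03 CPM for 8 endothelial genes, 3.12 CPM for 10 immune genes and 1.46 CPM for 8 skeletal muscle genes. Krt5, Krt14, Cd3e, Itgam, Tie1, Ckm and Myog were at 0 in all 4 libraries. The melanocyte list summed to between 15.1 and 19.4 CPM, nearly all of it Mitf, with Dct, Tyrp1 and Sox10 at 0. H2afy and H2afy2, the macroH2A genes, did not pass the test for a serum response in WT cells, with log2 fold changes of -0.03 and -0.12. Their mRNA was still counted in the dKO libraries, H2afy at 61.0 to 65.2 CPM against 91.2 to 94.3 CPM in WT. Counts summed over a whole gene do not show whether the deleted sequence is transcribed.

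Within 30 min, 232 of 15047 tested genes were higher and 62 were lower in WT iDFs. These were 1.54% and 0.412% of the genes tested. A gene was called at an adjusted p under 0.05 in edgeR's quasi-likelihood test with Benjamini-Hochberg adjustment and an absolute log2 fold change above 0.75. Without the threshold on the fold change, 545 genes (3.62%) rose and 200 (1.33%) fell. The median log2 fold change over all genes tested was -0.01. Leaving out 1 library, so that 1 group had a single culture whose spread was assumed to match the other groups, left 121 raised and 20 lowered genes without 0 min replicate 1, 112 and 12 without 0 min replicate 2, 253 and 65 without 30 min replicate 1, and 139 and 22 without 30 min replicate 2. The number of lowered genes depended more on the method. It was 41 with DESeq2 and 34 with an offset for transcript length, but 100 without the filter on low counts, 105 with a term for the replicate number and 138 with such a term at each time. With this last term 346 genes were raised. The members of the lists changed as well as their sizes, also in the fits with 1 library left out. Of the 62 lowered genes, DESeq2 called 32 again and the length offset 21. Of the 232 raised genes, they called 203 and 190 again.

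The rises were far larger than the falls. Of the raised genes, 187 exceeded a log2 fold change of 1, 86 exceeded 2, 46 exceeded 3 and 26 exceeded 4, and the median was 1.63. The median of the lowered genes was -1.02, and 33 of the 62 fell by more than 1 on the log2 scale. In all 232 raised and all 62 lowered genes the 2 cultures at 30 min did not overlap with the 2 at 0 min. This is no added support, because the genes were chosen by their p. Genes that were not called can also separate with 2 cultures per group, as Mcm3 and Col1a1 did, whereas Mcm2 and Rpl3 overlapped. The share of all tested genes without overlap is not given here. Most of the response began from low levels. The median raised gene went from 11.8 to 42.7 CPM, 45 raised genes averaged under 1 CPM at 0 min, and 44 were already above 50 CPM. The lowered genes were scarcer, with a median that went from 5.89 to 2.88 CPM and 1 gene above 50 CPM.

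**Figure D1:**
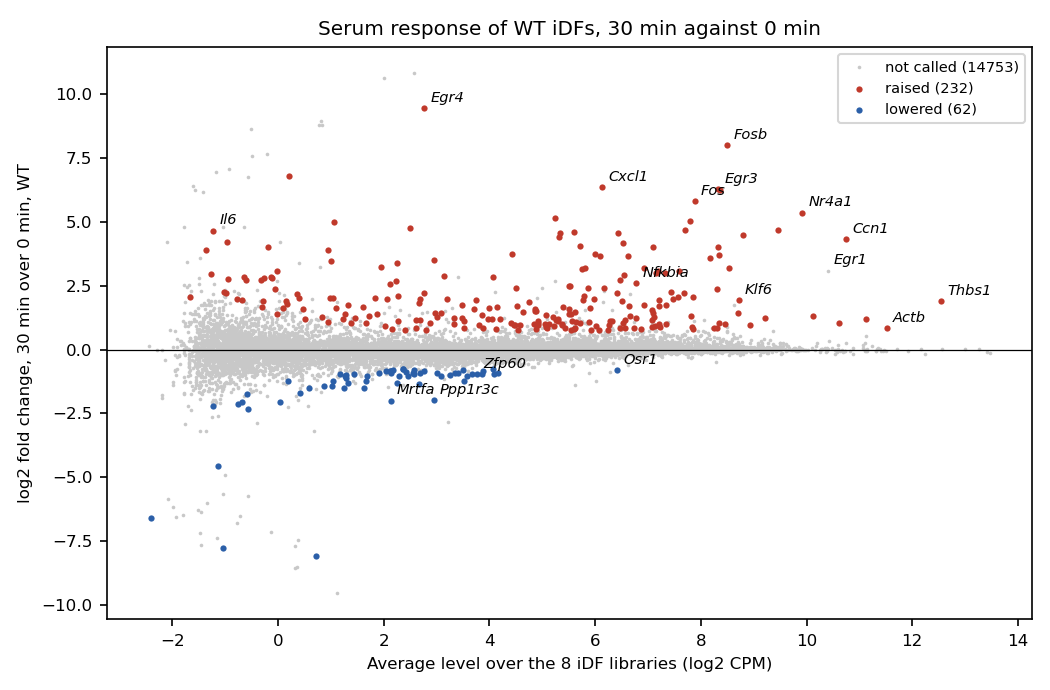
Log2 fold change at 30 min against 0 min in WT iDFs (vertical axis) plotted against the average level of each tested gene over the 8 iDF libraries in log2 CPM (horizontal axis), with the 232 raised and 62 lowered genes coloured. The raised genes reach a log2 fold change of 9.44 at Egr4, whereas most lowered genes lie at low levels between -0.75 and -2.

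Together the raised genes accounted for 12601 and 12566 CPM in the 2 cultures at 0 min and for 41626 and 46679 CPM at 30 min. The lowered genes went from 532 and 559 CPM to 290 and 262 CPM. A handful of genes carried most of the gain in CPM, which counts reads and is not corrected for transcript length. Thbs1, which encodes the matrix glycoprotein and TGF-β activator thrombospondin 1, went from an average of 2253 to 8470 CPM and made up 19.7% of the summed gain of the raised genes. Ccn1, encoding a matricellular protein, went from 149 to 2967 CPM and made up 8.92%. The cytoplasmic actins Actg1 and Actb added 4.72% and 4.44%, and the orphan nuclear receptor gene Nr4a1 4.30%. The first 5 genes held 42.1% of the gain and the first 10 held 53.9%, the others being Fosb, Ccn2, Tpm1, Errfi1 and Acta2. In TPM, which corrects for transcript length, the order differed, and Actb and Ccn1 gained more than Thbs1. Thbs1 averaged 653 TPM at 0 min and 2350 TPM at 30 min, Ccn1 136 and 2587 TPM, and Actb 4424 and 7256 TPM.

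Promoter sequences of some raised genes are shown here, all of which carry elements through which serum is known to act. The window of Btg2 was also taken, held no marked match and is not printed. Each is the stretch from 150 bases to 1 base before the RefSeq transcription start in GRCm38.p6, 5′ to 3′ on the strand of the gene. Capitals mark matches, on either strand, to the CArG box bound by SRF, the cyclic AMP response element (CRE, TGACGTCA) bound by CREB, the kappaB element bound by NF-κB, and the TATA box (TATAAA). The windows lie at chr17:46556163-46556312 on the minus strand (Srf), chr19:53528995-53529144 on the plus strand (Dusp5), chr7:28379229-28379378 on the minus strand (Zfp36), chr11:120348496-120348645 on the minus strand (Actg1), chr17:26508473-26508622 on the minus strand (Dusp1), chr5:90891095-90891244 on the plus strand (Cxcl1) and chr12:55492648-55492797 on the minus strand (Nfkbia). For Zfp36 and Dusp1 the window falls inside the extent that Gencode gives the gene, because longer transcripts start further upstream.
Srf: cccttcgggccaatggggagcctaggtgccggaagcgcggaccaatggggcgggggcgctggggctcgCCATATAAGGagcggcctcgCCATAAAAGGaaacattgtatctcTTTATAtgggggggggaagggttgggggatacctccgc
Dusp5: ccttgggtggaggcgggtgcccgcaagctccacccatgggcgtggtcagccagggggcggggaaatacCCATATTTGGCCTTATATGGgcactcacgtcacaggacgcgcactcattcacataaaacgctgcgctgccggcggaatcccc
Zfp36: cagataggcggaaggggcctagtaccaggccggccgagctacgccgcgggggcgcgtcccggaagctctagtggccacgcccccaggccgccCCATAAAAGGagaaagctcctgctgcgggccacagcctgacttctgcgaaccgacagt
Actg1: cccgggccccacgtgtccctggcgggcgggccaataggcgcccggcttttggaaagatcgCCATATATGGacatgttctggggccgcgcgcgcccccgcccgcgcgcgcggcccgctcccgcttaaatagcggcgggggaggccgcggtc
Dusp1: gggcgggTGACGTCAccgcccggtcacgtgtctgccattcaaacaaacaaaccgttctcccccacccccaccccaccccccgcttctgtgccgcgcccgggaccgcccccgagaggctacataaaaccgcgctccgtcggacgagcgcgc
Cxcl1: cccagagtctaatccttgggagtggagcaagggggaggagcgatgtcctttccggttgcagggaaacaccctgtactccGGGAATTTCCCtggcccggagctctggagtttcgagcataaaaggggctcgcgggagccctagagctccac
Nfkbia: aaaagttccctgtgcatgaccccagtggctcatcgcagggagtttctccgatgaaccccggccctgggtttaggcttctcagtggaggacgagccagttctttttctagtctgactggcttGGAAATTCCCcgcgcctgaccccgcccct

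Srf and Dusp5 each had a pair of CArG boxes in this stretch, beginning 82 and 62 bases before the start in Srf and 82 and 72 bases before it in Dusp5, where they lie back to back. Zfp36 and Actg1 had one each, 58 and 90 bases before the start. Dusp1 had a CRE, and Cxcl1 and Nfkbia had kappaB elements. Across the RefSeq windows of 250 bases before to 50 after the start, 21 of the 203 promoters of raised genes held a CArG box (10.3%, Wilson 95% interval 6.87% to 15.3%), against 187 of 13455 promoters of all tested genes (1.39%, 1.21% to 1.6%). None of the 41 promoters of lowered genes held one (0%, with an upper bound of 8.57%). The 15 raised genes with a CArG box were Egr2, Zfp36, Acta1, Dusp5, Gm28321, Prkab2, Filip1l, Srf, Lurap1l, Lima1, Actg1, Stbd1, Cldn12, Fhl1 and Fhl2.

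The other elements separated the raised promoters less. A CRE was present in 6.90% of raised promoters (4.15% to 11.2%) and in 2.99% of all (2.71% to 3.29%), among them those of Errfi1, Ch25h, Dusp1, Btg2 and Plk2. The TEAD element (GGAATG) was present in 19.2% (14.4% to 25.2%) against 12.2% of all (11.6% to 12.7%), and the TATA box in 12.3% (8.48% to 17.6%) against 7.08% (6.66% to 7.53%). For the kappaB element the shares were 7.88% (4.91% to 12.4%) and 5.20%, for the AP-1 element (TGANTCA) 6.40% (3.78% to 10.6%) and 4.88%, and for the EGR element (GCGNGGGCG) 14.3% (10.1% to 19.8%) and 10.5%. In these cases the interval of the raised promoters included the share of all promoters. The ETS core (CCGGAA) was the one element that was less frequent in raised than in all promoters, at 18.7% (13.9% to 24.6%) against 26.5%. The intervals cover counting error only, several genes have more than 1 promoter, a CArG box can overlap a TATA box, and a match is a description of the sequence and not of binding. Of the tested genes, 10522 had a RefSeq promoter here, including 158 raised and 33 lowered genes.

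The AP-1 and ATF transcription factors were among the strongest responders, with 7 of 14 tested members raised, none lowered and a median log2 fold change of 1.98. Fosb (ENSMUSG00000003545.3, chr7:19302696-19310051), a partner of Jun in AP-1, was at 2.95 and 3.17 CPM in the 2 cultures at 0 min and at 882 and 678 CPM at 30 min. This was a log2 fold change of 8.0 ± 0.26 (SE, n = 2 per group, edgeR adjusted p = 0.00013). Fos itself (ENSMUSG00000021250.13, chr12:85473890-85477273) went from 8.17 and 5.32 CPM to 542 and 220 CPM, a log2 fold change of 5.81 with a much larger SE of 0.87 (edgeR adjusted p = 0.0415). Its 2 cultures at 30 min differed by more than those of any other AP-1 gene named here, and its call was lost without any 1 of the 4 libraries, with edgeR adjusted p-values between 0.0765 and 0.277. Jun rose less but evenly, from 65.7 and 57.8 CPM to 299 and 277 CPM. Junb went from 45.8 and 34.8 CPM to 585 and 454 CPM, and the stress-responsive factor gene Atf3 from 4.44 and 5.24 CPM to 126 and 101 CPM. The small Maf genes Maff and Mafk rose by 2.48 and 1.48 on the log2 scale.

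Of 22 EGR, NR4A and other first-wave genes, 14 were raised and none was lowered, and all 22 had positive fold changes at an unadjusted p under 0.05 in edgeR. The median was 2.72. The share of all tested genes at an unadjusted p under 0.05 is not given here, so counts at that level, here and below, are descriptive. Counts of positive fold changes are descriptive too, with the median of -0.01 over all tested genes as their only reference. Egr3 (ENSMUSG00000033730.4, chr14:70077203-70082614), a zinc-finger factor of the EGR family, had the smallest p of any gene, going from 6.57 and 7.01 CPM to 518 and 541 CPM (log2 fold change 6.29 ± 0.07, SE, n = 2 per group, edgeR adjusted p = 2.96e-10). Egr2 went from 13.6 and 12.4 CPM to 516 and 342 CPM. Egr4 (chr6:85511121-85513589) had 0 and 1 counts at 0 min and 422 and 381 counts at 30 min. Its ratio of 868 had a counting interval of 155 to 34300, so that the size of the rise is set by the near absence of the transcript in starved cells. Nr4a1 went from 27.5 and 40.5 CPM to 1376 and 1407 CPM, and its relative Nr4a3 from 1.83 and 3.76 CPM to 60.2 and 68.1 CPM. Arc, known for its role at synapses, went from 5.19 and 5.95 CPM to 451 and 383 CPM. Myc, the growth and proliferation factor, went from 24.3 and 19.8 CPM to 140 and 232 CPM (log2 fold change 3.07, edgeR adjusted p = 0.0371).

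Egr1, the best known of the family, did not pass the test even though it was one of the most abundant of these transcripts. It stood at 349 and 177 CPM at 0 min and at 2668 and 1826 CPM at 30 min, with no overlap, a log2 fold change of 3.09 ± 0.63 (SE, n = 2 per group) and an edgeR adjusted p of 0.0856. DESeq2 and the length offset both called it, the latter at an edgeR adjusted p of 0.0283. Ier2, Id2 and Fosl1 were in the same position, with log2 fold changes of 3.03, 2.84 and 2.67 and edgeR adjusted p-values of 0.0911, 0.0859 and 0.0718. These genes had wide spreads between cultures, and the number of called genes therefore does not count every gene with a large fold change.

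**Figure D2:**
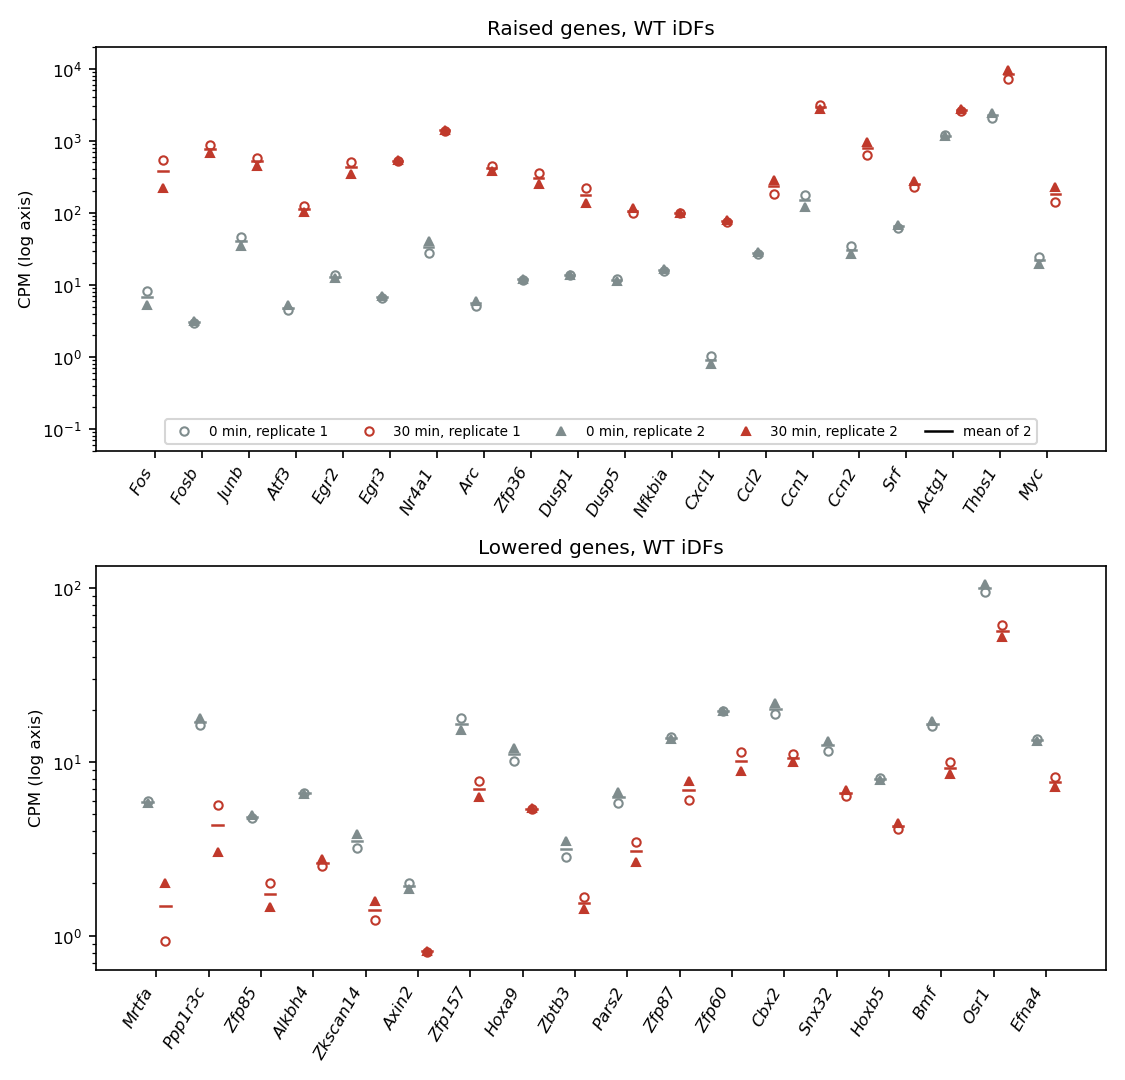
Levels of selected raised and lowered genes in CPM on a log axis, 1 point per culture with a bar at the mean of 2, for WT iDFs at 0 min (grey) and at 30 min (red). The raised genes have both 30 min points above both 0 min points, the 2 Fos points at 30 min (542 and 220 CPM) lying furthest apart.

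Feedback inhibitors of growth factor signalling rose alongside the factors. Of 26 MAP kinase phosphatases and other feedback genes, 8 were raised with the fold threshold and the median log2 fold change was 0.32. Dusp1, the nuclear MAP kinase phosphatase, went from 13.9 CPM in both cultures to 219 and 137 CPM, and Dusp5, which acts on nuclear ERK, from 12.1 and 11.2 CPM to 99.6 and 116 CPM. Dusp6, its cytoplasmic counterpart, went from 13.8 and 10.6 CPM to 60.9 and 75.1 CPM. Errfi1, an inhibitor of EGF receptor kinases, went from 36.9 and 32.6 CPM to 632 and 939 CPM. The others were Dusp2, Dusp8, Spry1 and the cytokine feedback gene Cish. Dusp2 had 0 and 1 counts at 0 min and 9 and 8 at 30 min. Dusp7 was the one listed phosphatase that fell at any fold (log2 fold change -0.59).

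Genes that shorten the life of mRNAs rose broadly, with 10 of 15 raised at any fold and 3 above the threshold. Zfp36, whose product tristetraprolin binds AU-rich elements of cytokine and immediate early mRNAs, went from 11.9 and 12.2 CPM to 361 and 250 CPM (log2 fold change 4.66 ± 0.31, SE, n = 2 per group, edgeR adjusted p = 0.00371). Btg2, an antiproliferative factor that recruits deadenylases, went from 36.3 and 29.8 CPM to 435 and 360 CPM. The ribonuclease gene Zc3h12a rose by 1.76 on the log2 scale. Zfp36l1 and Btg1 passed the test with smaller changes of 0.59 and 0.65.

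Genes for NF-κB subunits, inhibitors and feedback were raised in 4 of 18 cases, and 17 of the 18 had positive fold changes (median 0.46). Nfkbia (ENSMUSG00000021025.8, chr12:55489410-55492647) encodes IκBα, which holds NF-κB in the cytoplasm and is itself induced by it. It was at 15.7 and 16.8 CPM at 0 min and at 99.5 and 99.2 CPM at 30 min, a log2 fold change of 2.61 ± 0.05 (SE, n = 2 per group, edgeR adjusted p = 5.66e-09). The deubiquitinase gene Tnfaip3, another feedback inhibitor, went from 4.82 and 4.31 CPM to 44.9 and 72.1 CPM. Nfkbiz, an atypical IκB that acts in the nucleus, went from 20.8 and 18.7 CPM to 129 and 131 CPM, and Bcl10, an adaptor upstream of NF-κB, rose by 0.98 on the log2 scale.

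Of 27 tested chemokines and cytokines, 9 were raised and none was lowered (median 1.14). Cxcl1 (ENSMUSG00000029380.11, chr5:90891241-90893115), a neutrophil chemoattractant, went from 1.05 and 0.802 CPM to 75 and 78.9 CPM (log2 fold change 6.36 ± 0.10, SE, n = 2 per group, edgeR adjusted p = 1.22e-09). Its neighbour in function Cxcl2 had 1 and 0 counts at 0 min and 47 and 80 at 30 min, a ratio of 137 with a counting interval of 24.2 to 5460. The monocyte chemoattractants Ccl2 and Ccl7 started higher. Ccl2 went from 26.7 and 29.1 CPM to 182 and 286 CPM, and Ccl7 from 17.8 and 15.3 CPM to 109 and 139 CPM. Ptgs2, the inducible cyclooxygenase that makes prostaglandins, went from 11.8 and 9.46 CPM to 171 and 219 CPM. Il6 was scarce in every library, with 1 and 1 counts at 0 min and 21 and 31 at 30 min (ratio 28.1, counting interval 7.40 to 238). Ccl20 was equally scarce, with 2 and 1 counts against 12 and 21. Il1rn had no counts at 0 min and 3 and 4 at 30 min, at least 2.52-fold higher when 3 counts over the group are taken as the limit. The epithelial cytokine gene Tslp rose by 1.76 on the log2 scale.

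Secreted growth factors and vasoactive peptides rose in 5 of 40 cases. Edn1, the precursor of the vasoconstrictor endothelin 1, went from 1.83 and 0.802 CPM to 32.3 and 24.4 CPM, and Adm, the precursor of the vasodilator adrenomedullin, from 11 and 10.0 CPM to 33.0 and 43.5 CPM. The EGF receptor ligand gene Ereg went from 2.76 and 2.20 CPM to 15.4 and 21.7 CPM. Thbs1 (chr2:118111876-118127133) was at 2103 and 2404 CPM at 0 min and at 7237 and 9702 CPM at 30 min, and Gdf15 rose by 1.38 on the log2 scale. Hbegf and Lif, an EGF receptor ligand and an IL-6 family cytokine, had log2 fold changes of 2.25 and 2.40 without passing the test.

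The cytoskeletal targets of SRF and MRTF moved together at smaller folds but high levels. Of 39 tested, 14 were raised and 1 was lowered, 20 rose and 2 fell at any fold, and 34 had positive fold changes (median 0.27). The list also holds the coactivator genes Mrtfa and Mrtfb, which are not cytoskeletal targets, and the 1 lowered member was Mrtfa. Srf itself (chr17:46548329-46556175) went from 61.3 and 68.8 CPM to 231 and 276 CPM. Actg1 (chr11:120345690-120348542) went from 1188 and 1160 CPM to 2549 and 2781 CPM, and Actb from 1727 and 1777 CPM to 3051 and 3256 CPM. Their log2 fold changes were 1.18 ± 0.07 and 0.85 ± 0.05 (SE, n = 2 per group), with edgeR adjusted p-values of 2.74e-05 and 2.29e-05. The smooth muscle genes Acta2, Tagln and Cnn1 rose by 1.03, 1.41 and 1.31 on the log2 scale. Tpm1, a tropomyosin, went from 520 and 496 CPM to 1249 and 1278 CPM. Acta1, skeletal muscle actin, was scarce, with 1 and 1 counts at 0 min and 18 and 20 at 30 min, while the skeletal muscle markers Ckm and Myog were at 0. The focal adhesion genes Zyx, Itga5, Fhl2 and Lima1 rose by 1.01, 0.87, 0.86 and 1.22.

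YAP and TEAD targets split into strong responders and genes that hardly moved. Among 25 tested, 7 were raised, and the median of 0.03 was close to that of all genes. Ccn1 (chr3:145646976-145649981) went from 178 and 121 CPM to 3137 and 2796 CPM (log2 fold change 4.31 ± 0.33, SE, n = 2 per group, edgeR adjusted p = 0.00568). Ccn2, connective tissue growth factor, went from 34.5 and 26.7 CPM to 639 and 953 CPM. Ankrd1, a nuclear ankyrin repeat protein, went from 19.9 and 17 CPM to 130 and 162 CPM, and the tissue factor gene F3, which starts coagulation, from 114 and 106 CPM to 473 and 666 CPM. Nuak2, Gadd45b and Amotl2 rose by 2.43, 2.21 and 0.96 on the log2 scale. Several of these genes are also known targets of SRF.

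ID, HES and SMAD feedback genes were raised in 5 of 27 cases. Id1 (chr2:152736251-152737410), a dominant-negative helix-loop-helix protein, went from 4.22 and 4.90 CPM to 75.4 and 145 CPM (log2 fold change 4.6, edgeR adjusted p = 0.0454), and its call was lost without any 1 of the 4 libraries. Id3 went from 18.3 and 19.6 CPM to 137 and 205 CPM. The repressor genes Hes1 and Tgif1 rose by 1.04 and 1.08. Of 13 KLF family zinc-finger factors 4 rose, with Klf6 going from 190 and 155 CPM to 633 and 689 CPM and Klf2, Klf4 and Klf9 rising by 1.52, 1.12 and 0.84 on the log2 scale.

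Small groups of stress and growth control genes rose as well. Of 26 p53, CDK inhibitor and Gadd45 genes 7 rose, led by Gadd45g, which went from 14.6 and 13.9 CPM to 232 and 227 CPM (log2 fold change 4.01 ± 0.05, SE, n = 2 per group, edgeR adjusted p = 4.21e-10). The polo-like kinase gene Plk2 went from 80.4 and 54.4 CPM to 553 and 672 CPM, and Pmaip1, encoding the proapoptotic protein NOXA, from 13.5 and 12.8 CPM to 56.1 and 55.7 CPM. Of 18 heat shock and chaperone genes 4 rose. They were Hspa1a, Hspa1b, Dnajb1 and Dnajb4, with log2 fold changes of 1.21, 1.54, 1.11 and 1.69. Of 16 glucocorticoid-raised genes 5 rose, Sgk1 going from 35.1 and 28.2 CPM to 220 and 287 CPM. The others were Klf9, Dusp1, Errfi1 and Nfkbia, which are also members of lists described above. Of the 16, 10 had positive fold changes. Fkbp5 went from 93.9 and 92.7 CPM to 91.2 and 89.5 CPM, and was not called. Tsc22d3, at 33.6 and 31.5 CPM and then 29.0 and 24.4 CPM, was not called either. Of 22 CREB targets 5 rose.

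Other lists had few or no members past the fold threshold at 30 min. Of 28 S phase and mitosis genes none was called at any fold, with log2 fold changes between -0.07 and 0.17 and 3 at an unadjusted p under 0.05 by edgeR. Of 21 cyclin and G1 genes 3 rose, Myc, Mycl (1.12) and Ccnl1 (1.00). The 22 ribosomal protein genes lay between -0.06 and 0.09 and the 22 oxidative phosphorylation genes between -0.08 and 0.07, with none at an unadjusted p under 0.05 in edgeR. None of 29 interferon-stimulated genes was called, 2 reaching an unadjusted p under 0.05 in edgeR. Its widest difference was that of the chemokine gene Cxcl10, with a log2 fold change of 2.03 that did not pass. Of 24 ATF4 and unfolded protein response genes 5 rose at any fold and none passed the fold threshold. Of 24 clock genes 1 was raised above it. Of 33 receptors for serum signals 1 was raised, the lysophosphatidic acid receptor gene Lpar6 (1.67), and 5 at any fold. Of 34 C/EBP and other second-wave factors 2 were raised, and 15 had positive fold changes at an unadjusted p under 0.05 in edgeR. The FoxO and starvation list of 44 genes had a median of -0.06, 6 members raised at any fold and 2 above the threshold, Trib1 (3.74) and Cited2 (1.96), and neither is among the catabolic genes of that list. Trib1 encodes a pseudokinase and Cited2 a transcriptional coregulator. None of the FoxO and starvation genes was lowered past the fold threshold and 1 was lowered at any fold, while 16 of the 44 had positive fold changes. Txnip, a starvation and glucose sensor that restrains glucose uptake, was at 97.8 and 121 CPM at 0 min and at 57.1 and 35.5 CPM at 30 min, with a log2 fold change of -1.24 that did not pass (edgeR adjusted p = 0.214).

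**Figure D3:**
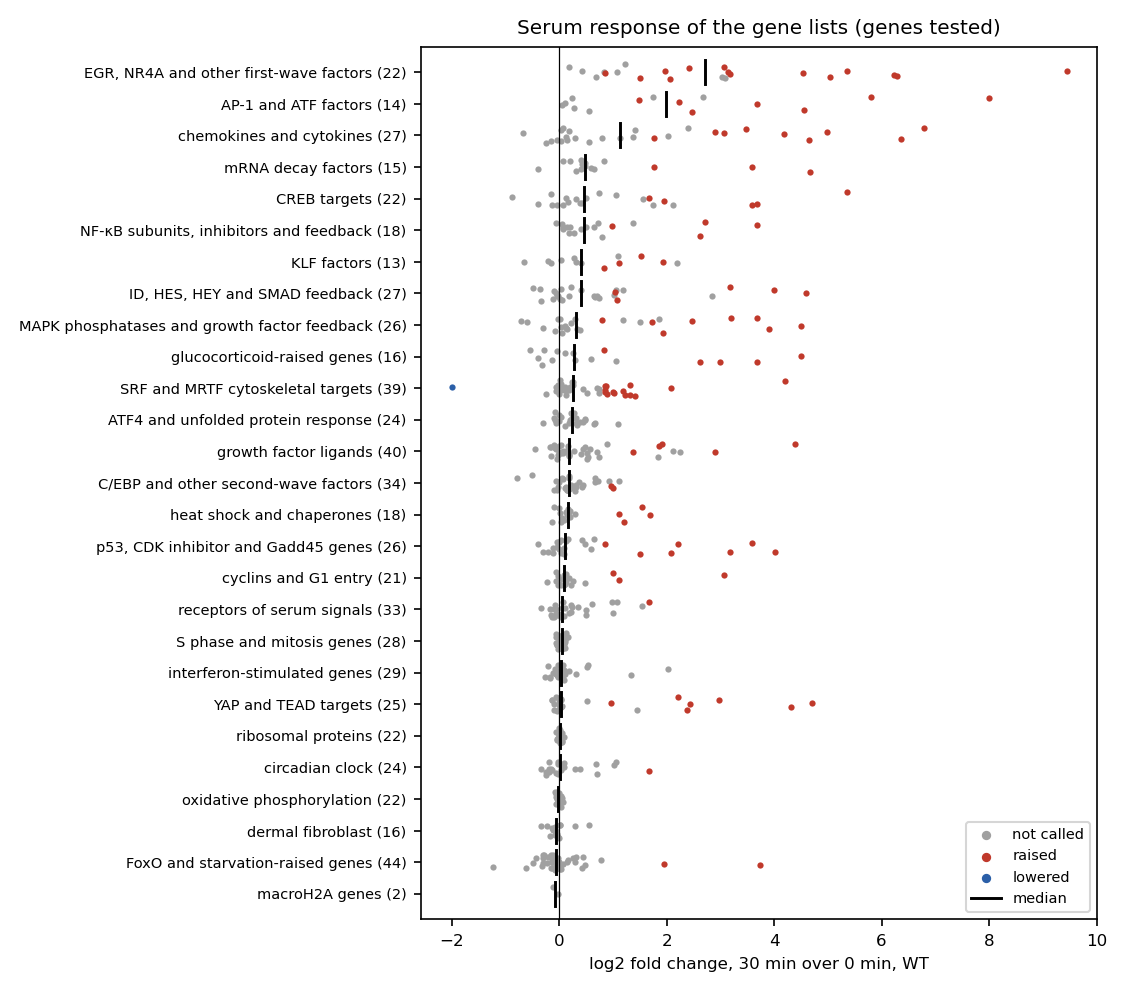
Log2 fold change at 30 min against 0 min in WT iDFs (horizontal axis) of every tested member of the gene lists shown (vertical axis, 1 line per list), with raised and lowered members coloured and the median of each list marked. The AP-1 and the EGR and NR4A lists lie furthest to the right, with medians of 1.98 and 2.72, and the ribosomal protein and oxidative phosphorylation lists stay at 0.

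Outside these lists, 93 raised protein-coding genes remained. Rgs16, which shortens G protein signalling, went from 1.31 and 0.887 CPM to 26.6 and 52.9 CPM. Ch25h, the cholesterol 25-hydroxylase, went from 3.40 and 3.88 CPM to 54.6 and 66.5 CPM, and Npas4, best known as an activity-dependent factor of neurons, from 2.13 and 1.98 CPM to 22.5 and 32.6 CPM. Others were Phlda1 (log2 fold change 2.84), the deadenylase gene Noct (2.26), Tiparp (1.91), the PIM kinase genes Pim1 and Pim3 (1.38 and 0.89) and the glucose transporter gene Slc2a1 (0.77). Apart from Rgs16, Ch25h and Tiparp, the genes named in this paragraph were chosen after their values were seen.

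The lowered genes had a different make-up. Of the 43 lowered protein-coding genes, 14 (32.6%) carried zinc-finger symbols of the Zfp, Zkscan, Zbtb or Zscan type, against 419 of the 12875 protein-coding genes tested (3.25%) and 5 of the 196 raised ones (2.55%). At any fold, 40 of 177 lowered protein-coding genes (22.6%) had such symbols. This group of symbols was drawn up after lowered genes had been seen. Among all 419 zinc-finger genes the median log2 fold change was -0.20 and 332 had negative values, whereas 0 to -0.01 was the median of all genes under every scaling tried. Most of these genes encode DNA-binding repressors of low abundance. Zfp85 went from 4.78 and 4.94 CPM to 2.01 and 1.46 CPM (log2 fold change -1.48 ± 0.20, SE, n = 2 per group, edgeR adjusted p = 0.00359). Zfp157 went from 17.8 and 15.2 CPM to 7.77 and 6.27 CPM, Zfp60 from 19.6 and 19.8 CPM to 11.4 and 8.93 CPM, and Zfp87 from 13.9 and 13.6 CPM to 6.02 and 7.77 CPM.

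Other regulators also fell. Hoxa9, a homeobox factor of positional identity, went from 10.1 and 12.1 CPM to 5.34 and 5.41 CPM, and Hoxb5 fell by 0.90 on the log2 scale. Osr1, a zinc-finger factor of mesenchymal progenitors, was the most abundant lowered gene and went from 95.6 and 105 CPM to 61.2 and 52.8 CPM. Axin2, a feedback inhibitor of Wnt signalling, went from 2.02 and 1.86 CPM to 0.811 and 0.816 CPM, and the Polycomb gene Cbx2 fell by 0.95 on the log2 scale. Alkbh4, a demethylase, went from 6.64 and 6.55 CPM to 2.52 and 2.75 CPM (log2 fold change -1.32 ± 0.16, SE, n = 2 per group, edgeR adjusted p = 0.00194). Ppp1r3c, which targets protein phosphatase 1 to glycogen, went from 16.3 and 17.8 CPM to 5.68 and 3.05 CPM. Bmf, a proapoptotic BH3 protein, fell by 0.85 on the log2 scale.

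Mrtfa (ENSMUSG00000042292.16, chr15:81012281-81190757), the actin-regulated coactivator of SRF, had the greatest fall among lowered protein-coding genes with an average log2 CPM of at least 1. It went from 5.97 and 5.83 CPM to 0.939 and 2.02 CPM, a log2 fold change of -1.99 ± 0.27 (SE, n = 2 per group, edgeR adjusted p = 0.00359). With an offset for the estimated length of its transcripts the value was -0.85 and the call was lost (edgeR adjusted p = 0.172), so the mixture of Mrtfa transcripts assigned to the gene differed between the times. In dKO iDFs its log2 fold change was -0.87. A few lowered transcripts had no counts at all at 30 min. The histone gene Hist1h4k, one of many near-identical copies whose reads cannot be assigned with certainty, had 10 and 13 counts at 0 min and was at least 7.09-fold lower. The noncoding transcript CAAA01066123.1 had 44 and 22 counts and was at least 20.4-fold lower in WT, but its log2 fold change in dKO iDFs was 0.46.

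Raised and lowered genes were both compact. The median span of the 196 raised protein-coding genes was 10.7 kb (interquartile range 4.22 to 25.7 kb) and that of the 43 lowered ones 7.99 kb (4.68 to 14.1 kb), against 24.6 kb (10.5 to 58.4 kb) for the 12875 protein-coding genes tested. The median exon numbers of their transcripts were 5, 3 and 9. Genes under 10 kb made up 47.4% of the raised, 58.1% of the lowered and 23.7% of all. Genes over 50 kb made up 8.7%, 2.3% and 28.6%. Id1, Ier3 and Ch25h span 1.16, 1.24 and 1.39 kb. The long exceptions among raised genes included Filip1l (220 kb), Cpeb3 (187 kb), Srrm4 (153 kb), Sgk1 (118 kb) and Lima1 (97 kb), although a transcript may begin inside the annotated span. Starting levels differed too, with median levels at 0 min of 16.8 CPM in raised, 6.59 CPM in lowered and 29.1 CPM in all protein-coding genes, and their part in the spans was not tested.

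**Figure D4:**
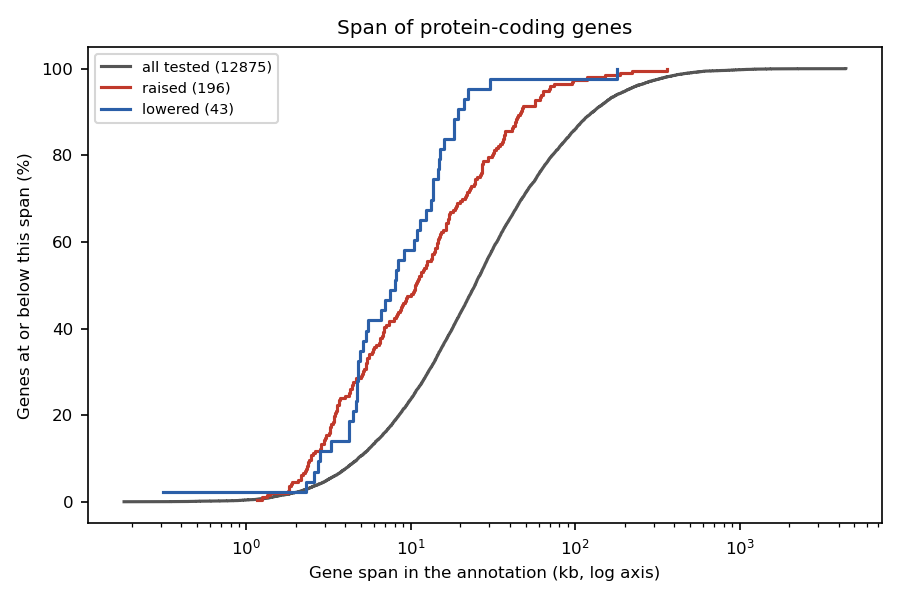
Cumulative share of protein-coding genes in percent (vertical axis) at or below a given gene span in kb (horizontal log axis), for the raised, the lowered and all tested genes in WT iDFs. The medians are 10.7, 7.99 and 24.6 kb, so both sets of responding genes lie to the left of the tested genes over most of the range.

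Transcripts annotated as retaining an intron were followed as a share of the estimated counts of each gene. In 73 raised genes with such a transcript and a mean of at least 5 CPM, the share was higher in both 30 min cultures than in both 0 min cultures in 37 genes and lower in 8. Among all 6516 such genes tested the balance was the other way, with 915 higher and 1848 lower. Some raised genes reach this level at 30 min alone, and their shares at 0 min rest on few counts. With a mean of at least 5 CPM required at each time, the share was higher in 37 and lower in 5 of 65 raised genes, and higher in 911 and lower in 1834 of 6470 tested genes. Tagln went from 1.99% and 1.93% to 20.1% and 14.6%, Zyx from 5.42% and 3.06% to 15.9% and 11.2%, and Ccl2 from 3.44% and 5.34% to 17.9% and 12.1%. The share fell in Nfkbia, from 14.2% and 14.4% to 10.2% and 9.33%, in Dusp1, from 7.81% and 7.61% to 3.89% and 4.93%, and in Dnajb4, from 7.94% and 10.6% to 1.92% and 1.49%. Reads that fit several transcripts were divided by a model, and these shares are estimates with no test.

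Of the raised genes, 36 were not protein-coding, 20 of them annotated as yet to be experimentally verified. Of the 36, 9 (25%) lay within 10 kb of a raised protein-coding gene, 6 of them overlapping it and 7 on its strand. Among all 2172 tested genes of this kind, 40 (1.8%) lay as close. Gm38357 (log2 fold change 4.75) lies within Noct, Gm17024 (3.24) within Ifrd1, and Gm43185 (1.97) at Nexn. AC124502.5 (3.52) lies 1041 bases from Npas4. On the opposite strand, Gm15270 (2.22) overlaps Ccn2 and Gm17501 (1.99) lies 331 bases from Ccn1. Reads of such entries and of the coding gene beside them cannot always be told apart, and their values are uncertain. Mir22hg, the host transcript of a microRNA, rose by 1.46 on the log2 scale without a raised coding neighbour.

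The 2 cultures at 30 min differed in which raised genes were higher. Among 162 raised genes with an average log2 CPM of at least 3, 130 were higher in replicate 2 and 32 in replicate 1, whereas 9817 genes of that level that were not called divided into 5102 and 4715. Fos was higher in replicate 1 by 1.30 on the log2 scale, Dusp1 by 0.68, Egr2 by 0.59, Zfp36 by 0.53 and Junb by 0.37. Rgs16 was higher in replicate 2, with a log2 ratio of replicate 1 to replicate 2 of -0.99, and so were Id1 (-0.94), Myc (-0.73), Tnfaip3 (-0.68), Ccl2 (-0.66) and Ccn2 (-0.58). Egr3 (-0.06) and Nfkbia (0.01) were alike in both. The dKO cultures of the same numbers differed in the same way, with 1.22 for Fos, 0.76 for Dusp1, -1.27 for Id1 and -0.74 for Myc. All 21 raised genes whose log2 ratio exceeded 0.5 in either direction in WT had the same sign in dKO, as did 105 of the 116 such genes among those not called. Across the 162 genes the Pearson correlation of the WT and dKO ratios was 0.875 and the Spearman correlation 0.811, and across the genes that were not called the Pearson correlation was 0.377. At 0 min some raised genes also had like ratios in WT and dKO, such as Fos (0.61 and 0.93), Nr4a1 (-0.56 and -0.52) and Plk2 (0.563 and 0.575). Others did not, such as Id1 (-0.21 and 0.29) and Arc (-0.195 and 0.323). Genes are not independent, and the labels give no date or batch by which the numbers could be read. What set the cultures apart was not tested, and the spread it adds stands in every SE given here. The fit with a separate replicate term at each time, added after this was seen and left with fewer residual degrees of freedom, called 231 of the 232 raised and all 62 lowered genes again.

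**Figure D5:**
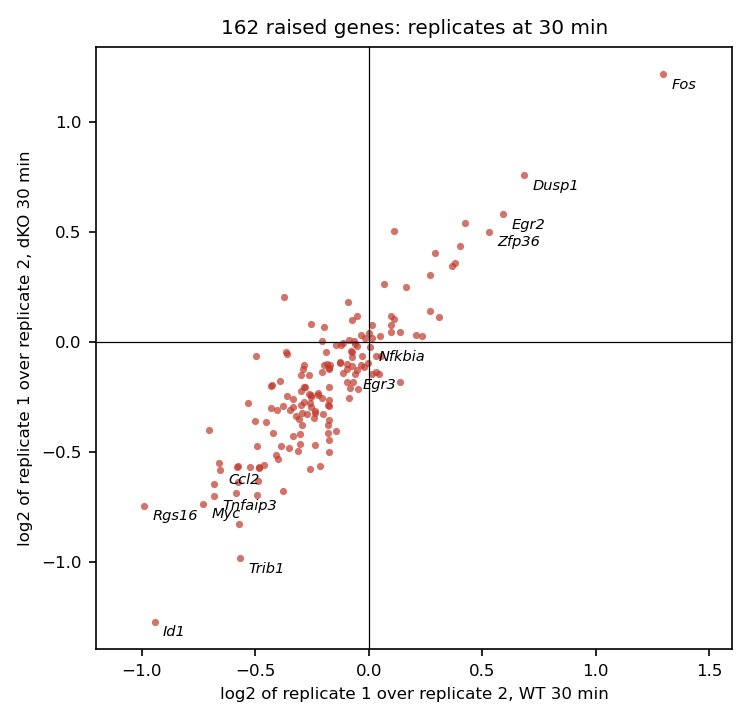
Log2 ratio of replicate 1 to replicate 2 at 30 min in WT iDFs (horizontal axis) against the same ratio in dKO iDFs (vertical axis) for the 162 raised genes with an average log2 CPM of at least 3. The points follow a rising line, with Fos at 1.30 and 1.22 at one end and Id1 at -0.94 and -1.27 at the other.

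Most of the response was also present in dKO iDFs, which were given the same treatment. Of the 232 genes raised in WT, 203 (87.5%) were called raised in dKO and 231 had a positive fold change there. These 203 genes were 63.0% of the 322 genes called raised in dKO (2.14% of the genes tested). Of the 62 lowered in WT, 45 (72.6%) were called lowered in dKO, or 26.3% of the 171 called there (1.14%). The median log2 fold changes of the raised genes were 1.63 in both genotypes. The WT and dKO contrasts have no library in common but share the estimate of the spread. When the difference between genotypes was itself tested as an interaction, 2 of 15047 genes passed (0.0133%), and 1 of them was a gene called in WT. This was Nfkbia, which went from 19.0 and 19.3 CPM to 304 and 308 CPM in dKO iDFs, a log2 fold change of 4.0 against 2.61 in WT. Tnfaip3 had log2 fold changes of 3.68 in WT and 5.51 in dKO, Id3 of 3.18 and 1.94, and Plk2 of 3.18 and 2.25, and none of these differences passed the interaction test.

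A last comparison set the raised genes beside the 4 WT libraries of cancer-associated fibroblasts (CAFs), sorted by CD140a from melanomas of WT mice 50 days after tumour induction and not cultured. The values are TPM, which correct for transcript length, from separate libraries with different input and handling, so they are described without a test. Of 196 raised protein-coding genes, 130 (66.3%) were higher in all 4 CAF libraries than in both starved iDF cultures, against 23.8% of 12863 protein-coding genes. Compared with both stimulated cultures, 68 (34.7%) were higher in all CAF libraries, against 25.1% of all. Fos averaged 5.87 TPM in starved and 323 TPM in stimulated iDFs and lay between 3055 and 3873 TPM in CAFs. Fosb averaged 1.4 and 414 TPM against 2040 to 2946 TPM, and Jun 34.0 and 151 TPM against 1130 to 1443 TPM. Cxcl1 averaged 1.86 and 159 TPM against 892 to 2153 TPM. The matrix and contractile targets were the reverse. Thbs1 averaged 653 and 2350 TPM in iDFs and 341 to 495 TPM in CAFs, and Ankrd1 17.2 and 139 TPM against 0.0508 to 0.232 TPM.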

How the data were processed

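Poly-A RNA from cultured iDFs was sequenced as single reads with a directional kit, and the authors quantified the reads against Gencode transcripts (GRCm38.p6) by Salmon, version 1.2.1. The deposited estimated counts per transcript are not normalized. The authors' files also hold TPM values, which Salmon scales by effective transcript length to the same total in every library, and the effective lengths.

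Gene totals were formed here in Python 3.11.15 by adding the estimated counts of all transcripts that Gencode mouse release 21 assigns to a gene, and were rounded. The annotation held 139791 of 140992 transcripts (99.15%), and the unassigned remainder took 0.31% to 0.432% of a library. The 8 iDF libraries in 4 groups were fitted together by edgeR 4.0.16 under R 4.3.3 (low counts removed by filterByExpr at a count of 10 and a total of 15, TMM factors, robust quasi-likelihood test with 4 residual degrees of freedom, biological coefficient of variation 0.0678). CPM values use TMM-scaled library sizes, counting intervals are exact binomial at 95%, and intervals cover counting error only. In simulated data for this comparison, with 100 genes changed at each size, edgeR recovered 68% of genes at a log2 fold of 1 and 85% at 2, with 3 false calls among 15047.

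The members and gene lists were chosen with earlier results of these data known. By rule, the named genes were the 20 raised and 15 lowered protein-coding genes of greatest change with an average log2 CPM of at least 1, the 10 raised and 10 lowered genes of smallest p, up to 4 members per list, the macroH2A genes, 5 noncoding genes and those with a called interaction. Other genes were named after their values were seen. Alternatives were DESeq2 1.42.0, RLE factors, no filter on low counts, a length offset, protein-coding genes alone, WT libraries alone, a block for the replicate number and each WT library left out. A separate block at each time was added after the data had been seen. TPM served for the CAF comparison and to weight lengths. The other 24 libraries were not used here. The results of some genes are not reported here.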

Additional observations from a re-analysis of the deposited data

Results flagged for a closer look

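Nfkbia was singled out because its serum response differed between genotypes by the interaction test. It went from 15.7 and 16.8 CPM to 99.5 and 99.2 CPM in WT iDFs and from 19.0 and 19.3 CPM to 304 and 308 CPM in dKO iDFs, so the starting levels were similar and both dKO cultures at 30 min lay above both WT cultures. The difference of the log2 fold changes, dKO minus WT, was 1.384 with an SE of 0.07 (edgeR adjusted p = 0.000112). Over the 11 alternatives in which it was computed the difference lay between 1.34 and 1.58, with adjusted p-values from edgeR or DESeq2 between 4.76e-26 and 0.00612. Each genotype is represented by cultures of its own cells, so genotype and any other difference between the cell cultures cannot be told apart.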

How the results depend on the processing

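None of the 232 raised genes had a negative fold change in any of the 13 alternatives, and 1 of the 62 lowered genes had a positive one, with the length offset. The raised count stayed between 198 and 346 in the alternatives that kept all 4 libraries, and the lowered count moved more. DESeq2 gave 41 lowered genes, 97 at any fold and 4 called interactions among the WT genes. Without the filter on low counts there were 100, 411, 69 lowered in WT and also in dKO, and 2 interactions. The length offset gave 34 lowered and 73 at any fold. With the replicate block there were 105 lowered, 936 raised and 491 lowered at any fold, 70 lowered in both genotypes and 3 interactions, and with the block in the WT libraries alone 324 lowered at any fold. The block at each time, added after the data were seen, gave 138 lowered, and 1364 raised and 817 lowered at any fold. With at least 5 CPM at each time, also added, 5 rather than 8 raised genes had a lower retained-intron share at 30 min. The causes of these differences were not tested. Over all genes, the deviations of same-numbered libraries correlated at 0.018 between the WT times. The values were 0.116 to 0.127 between the dKO times and between genotypes at each time. The main fit did not pair 0 min with 30 min by number. These correlations cannot decide whether the numbers pair the times, because the value between genotypes at 30 min was also as small as 0.116. Within 30 min the WT and dKO cultures of a number did deviate together in the raised genes, and at 0 min some raised genes did so too. The block at each time has a term for both times. The replicate block in all 8 libraries brought 4 more named genes past the threshold and lost 1. The block at each time brought 4 and lost 0, and the block in the WT libraries alone brought 2 and lost 12.

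With 1 library left out, raised genes ran from 112 to 253, lowered genes from 12 to 65, raised genes at any fold from 174 to 528 and lowered ones from 16 to 137. Of the 127 named genes, 8 to 42 lost their call in these fits, in which 1 culture stands for its group and is assumed to vary like the others. Genes that changed sign were all near 0 and not called. For these, leaving out a library gave -0.0405 to 0.00951 for Mcm2, -0.39 to 0.29 for Irf7, -0.38 to 0.0484 for Irf9, -0.0100 to 0.0104 for Rpl3, -0.0373 to 0.0408 for Rpl4, -0.0684 to 0.0191 for Ndufa4, -0.0683 to 0.0617 for Ndufa9, -0.21 to 0.43 for Krt10, -0.24 to 0.34 for Epcam, -0.37 to 0.39 for Pecam1, -0.20 to 0.0243 for Kdr and -0.42 to 0.18 for Pmel. The length offset gave 0.0147 for Mcm2, 0.0175 for Irf7, 0.00976 for Pmel, -0.00204 for Rpl3 and 0.00688 for Ndufa9. Rpl3 was also -0.000946 without the filter, -0.00178 with protein-coding genes alone, -0.000335 with the replicate block and -0.000271 with the block at each time. Rpl4 was -0.000438 with protein-coding genes alone. Ndufa9 was 0.00416 with DESeq2, 0.0053 with RLE factors, 0.00136 with the WT libraries alone and 0.00132 with the block in the WT libraries alone.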
